A study of Homo sapiens with 12 samples.

Results

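Genes of homologous recombination and of the Fanconi anaemia pathway were followed through knockdown of MARK2 in 3 lung cancer cell lines. The list holds 36 genes chosen by function. Of these, 32 were matched to a probe set with 1 gene symbol, and all 32 passed the filter on dim signals, among 16205 genes tested in all. BRCA2, RBBP8, FANCA and FANCD2 were not analysed here. The lines, H1693, H1993 and H1650, derive from non-small cell lung cancer and were picked by the submitters for high MARK2, a kinase of microtubule-associated proteins. Each line was transduced with a lentivirus that carried either a short hairpin RNA against MARK2 (knockdown) or no hairpin, the empty pLKO vector (control). The 6 groups have 2 Affymetrix arrays each, described as biological replicates, so 12 arrays were compared; no agent that damages DNA is named in the labels. The sources used here name neither how many MARK2 hairpins were used nor their sequence, and the control vector has none, so an effect of the hairpin on other transcripts cannot be told apart from that of losing MARK2.

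Homologous recombination repairs a broken chromosome by copying the intact sister chromatid. The broken ends are resected to single strands, BRCA1 and PALB2 bring in BRCA2, a single strand invades the sister, and the joined molecules are then dissolved or cut apart. The Fanconi pathway handles crosslinks between DNA strands, such as those made by cisplatin: a core complex ubiquitinates the FANCI and FANCD2 pair, which directs nucleases to the crosslink and hands the resulting break to recombination. Many of these genes are expressed mainly in S and G2 phase, under E2F factors among others, so their transcript levels commonly move with those of replication genes.

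The arrays themselves set limits on what follows. On the log2 signal scale a difference of 1 is a 2-fold difference. MARK2 fell by 2.35 in H1993 and by 1.27 in H1693 (limma adjusted p = 6.47e-06 and 0.000258), whereas its change in H1650 was -0.29 (adjusted p = 0.156). Its control mean was 5.94 in H1650, near the filter level of 5, against 7.86 in H1693 and 9.12 in H1993. Signals below 5 occur on these arrays, and whether the low level hid a fall of MARK2 in H1650 was not tested. RNA integrity was read from GAPDH as 3' end signal minus 5' end signal. This was 2.68 ± 0.56 (log2, SD, n = 2) in the controls of H1650 and 6.82 ± 0.07 in its knockdown arrays, against group means from -0.10 to 0.00 in the other lines. In H1650 the lower 5' signal and the hairpin cannot be told apart. The epithelial markers were well above the other marker lists, with a mean signal over 6 genes from 12.36 to 14.21 on every array, although KRT7 averaged 6.70 and 6.38 in the control and knockdown arrays of H1693, and KRT8 in H1650 fell from 11.66 to 7.19. The lung lineage markers were low, with NKX2-1 between 6.90 and 7.32 and all 6 genes between 4.80 and 8.13. Their mean per array ran from 6.54 to 6.93, close to the leukocyte list at 5.37 to 7.16 and the endothelial list at 5.68 to 7.02. The fibroblast list ran from 5.44 to 8.32 as a mean per array. In the H1693 controls LUM, COL3A1 and COL1A1 averaged 10.92, 10.42 and 9.85, while COL1A2, DCN and PDGFRB averaged 5.44, 4.39 and 6.63. COL3A1 also averaged 10.41 in the H1650 controls. None of the 5 tested genes of the list fell. In H1693 3 rose (COL1A1 by 0.67, COL3A1 by 0.62 and LUM by 0.95), and in H1993 2 (COL1A1 by 0.59 and LUM by 2.00). In H1650 LUM rose, but its mean there went from 3.33 to 3.98, below the filter level of 5. In H1993 the mean of LUM went from 3.74 to 5.74, near that level. The part of these markers in the results below was not tested.

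In H1693 the pathway was lower after knockdown as a group. Of the 32 genes, 24 fell and none rose, against 15.9% of all genes tested that fell and 17.1% that rose. The median change was -0.51 on the log2 scale, or -0.49 relative to the median of all genes, which was -0.02. In 26 genes both knockdown arrays lay below both control arrays and in 4 above them, as for 36.1% and 32.9% of all genes. The 24 falls include BLM, EME1, FANCB, FANCI, BRCA1, BRIP1 and RAD51AP1, which ended at 46.0% to 58.2% of the control signal. The genes that did not pass in H1693 were RAD51B, RAD52, XRCC2, MUS81, FANCC, FANCF, FANCL and FAN1. In these whole cultures a smaller share of cells in S and G2 phase and less RNA per cell cannot be told apart.

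In H1993 fewer genes passed. There 14 fell and FANCL rose, against 14.5% of all genes that fell and 18.9% that rose, with a median change of -0.23, or -0.24 relative to all genes. Both knockdown arrays lay below both control arrays in 26 genes here too and above them in 2, as for 29% and 34.7% of all genes. The largest fall was that of EME1, which ended at 48.7% of its control. With a change of at least 1.5-fold required as well, 13 genes passed in H1693 and 4 in H1993, all of them lower. The share of all genes that passed at this setting was not counted. Of the 32 genes, none rose in both lines, against 8.38% of all genes, and 13 fell in both, against 6.94%. These 13 were BRCA1, RAD51C, RAD51D, RAD51AP1, RAD54B, BLM, RMI2, EME1, GEN1, FANCB, FANCG, FANCI and UBE2T. Among them, BRCA1 and FANCB in H1993 and RAD54B in both lines lost their call under some of the alternatives run. Over the 32 genes, the changes in the lines, which share no array, had a Pearson correlation of 0.486, and over all 16205 genes of 0.389. Genes are not independent replicates, so no p-value is attached.

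In H1650 the same genes were spread in both directions. There 17 rose and 6 fell, against 36.7% of all genes that rose and 16.7% that fell, and the median of all genes was itself shifted by 0.15 (log2). The genes' median change was 0.25, or 0.09 relative to that shift. Both knockdown arrays lay above both control arrays in 20 genes and below them in 9, as for 51.1% and 22.4% of all genes. After quantile normalisation of the tested genes, which brought the median of all genes to 0.04, 12 rose and 9 fell. Over the 16205 genes tested, 4737 then rose and 3468 fell. Among the genes past the threshold, the share that was higher went from 68.8% to 57.7%. The mean of all probe sets of a gene also gave 12 higher and 9 lower, and 4 genes reversed. Of the 13 genes that fell in both other lines, RAD51D, EME1 and FANCG also fell in H1650, and BRCA1, RAD54B, BLM, RMI2, GEN1, FANCB and UBE2T rose on the probe set used. These arrays are the ones with the 3' minus 5' difference in GAPDH given above, and its part in these values was not tested.

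**Figure D1:**
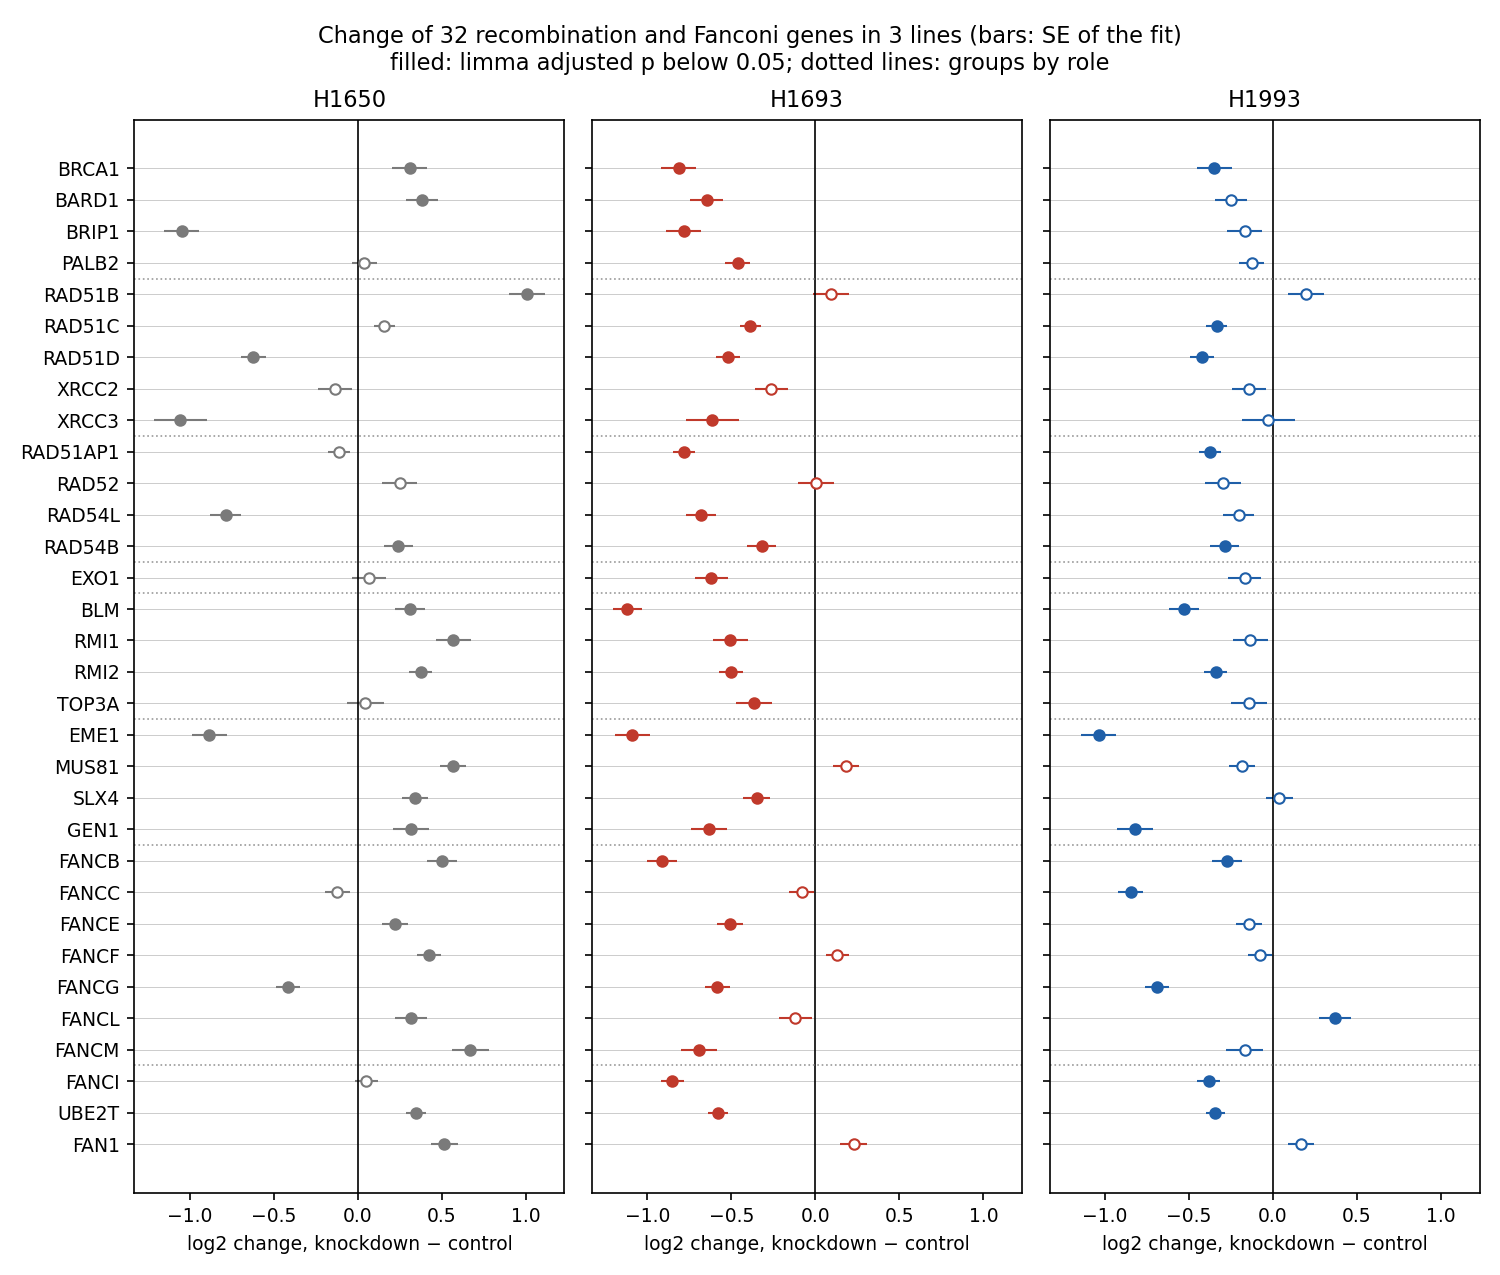
Log2 change (knockdown minus control) of the 32 genes in H1650, H1693 and H1993, grouped by role, with the standard error of the fit as bars and filled points where the adjusted p was below 0.05. In H1693 24 filled points lie left of 0 and none right of it, in H1993 14 lie left and 1 right, and in H1650 6 lie left and 17 right.

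The promoters shown are those of the 6 genes with the largest mean fall over H1693 and H1993, among those that fell in both and have an entry. The genes were picked by that fall, so their shared direction in these lines is no result. Sequences are from RefSeq on GRCh38.p14, from 250 bases before the transcription start to 30 after it, 5' to 3' on the strand of the gene. EME1 lies on chromosome 17 (plus strand, chr17:50372979-50373258), BLM on 15 (plus, chr15:90717096-90717375) and GEN1 on 2 (plus, chr2:17753619-17753898). FANCG lies on chromosome 9 (minus strand, chr9:35079913-35080192), FANCB on X (minus, chrX:14873040-14873319) and BRCA1 on 17 (minus, chr17:43125335-43125614). Each window holds upstream sequence and the start of the first exon. Capitals mark matches, on either strand, to an E2F core (TTCCCGC or TTGGCGC or TTCGCGC or TTGCCGC), to its longer form with a further T in front (TTTCCCGC or TTTGGCGC or TTTCGCGC or TTTGCCGC, each overlapping a core), to the CCAAT box (CCAAT) bound by NF-Y, and to TTTGAA, the cell cycle homology region (CHR) of genes that peak in G2 and mitosis.
EME1: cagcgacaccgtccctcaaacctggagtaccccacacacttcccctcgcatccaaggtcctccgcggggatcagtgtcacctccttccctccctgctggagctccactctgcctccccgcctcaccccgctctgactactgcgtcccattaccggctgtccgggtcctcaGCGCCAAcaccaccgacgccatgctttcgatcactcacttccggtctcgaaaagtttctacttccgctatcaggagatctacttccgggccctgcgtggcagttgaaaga
BLM: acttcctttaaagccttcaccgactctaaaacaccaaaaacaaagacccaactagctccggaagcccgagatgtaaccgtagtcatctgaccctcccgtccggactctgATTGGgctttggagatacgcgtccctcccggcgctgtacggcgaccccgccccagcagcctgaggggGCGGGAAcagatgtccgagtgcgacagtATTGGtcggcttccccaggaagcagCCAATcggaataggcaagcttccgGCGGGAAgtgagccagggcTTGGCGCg
GEN1: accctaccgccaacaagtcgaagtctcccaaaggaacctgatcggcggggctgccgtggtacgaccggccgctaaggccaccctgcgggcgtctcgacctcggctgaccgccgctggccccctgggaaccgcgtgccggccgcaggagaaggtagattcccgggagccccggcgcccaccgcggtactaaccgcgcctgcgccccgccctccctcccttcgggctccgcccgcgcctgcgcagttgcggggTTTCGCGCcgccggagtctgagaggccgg
FANCG: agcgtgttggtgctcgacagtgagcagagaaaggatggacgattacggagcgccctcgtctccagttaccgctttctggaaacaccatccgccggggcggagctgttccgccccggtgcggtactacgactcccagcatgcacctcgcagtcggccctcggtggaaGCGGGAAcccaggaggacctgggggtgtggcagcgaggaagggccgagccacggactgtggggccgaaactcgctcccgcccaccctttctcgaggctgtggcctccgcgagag
FANCB: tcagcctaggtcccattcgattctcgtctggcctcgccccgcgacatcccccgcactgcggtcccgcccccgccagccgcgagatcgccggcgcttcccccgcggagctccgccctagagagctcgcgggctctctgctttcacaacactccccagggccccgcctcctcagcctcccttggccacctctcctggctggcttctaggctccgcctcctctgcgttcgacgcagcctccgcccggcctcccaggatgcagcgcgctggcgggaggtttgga
BRCA1: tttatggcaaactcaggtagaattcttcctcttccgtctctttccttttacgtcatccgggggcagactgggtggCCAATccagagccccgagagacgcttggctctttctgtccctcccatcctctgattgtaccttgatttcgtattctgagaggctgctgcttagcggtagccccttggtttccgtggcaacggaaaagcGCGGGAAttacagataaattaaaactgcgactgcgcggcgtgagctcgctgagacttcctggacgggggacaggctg

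BLM held 3 matches to the E2F core and 3 CCAAT boxes, the most of these windows. Its CCAAT matches begin at bases -141, -46 and -21 and its E2F core matches at -74, 4 and 23, counted from the start site. EME1 held 1 core match at -80, FANCG 1 at -84, BRCA1 1 at -47 beside a CCAAT box at -175, and GEN1 the longer form at base 2. In FANCB none of these letters occurred in the window. Of the 29 genes of the list with an entry, 19 (65.5%) held the E2F core, against 12.2% of all 35116 promoters in the table and 17% of those of 12980 tested genes. The longer form occurred in 3 (GEN1, EXO1 and XRCC2), against 3.14% of all promoters, and the CCAAT box in 12, against 33.6%. TTTGAA occurred in 2, BRIP1 and UBE2T, against 14.5%. The core form was added after the longer form had been counted, so no test is given. A match describes letters in a window and no binding site.

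BRCA1, a ubiquitin ligase that directs resection, fell in H1693 and H1993. In H1693 its signal was 8.37 and 8.32 in the control arrays and 7.58 and 7.48 in the knockdown arrays. The change was -0.81 (log2, SE 0.10, limma adjusted p = 0.000277), or 56.9% of the control signal. In H1993 it was 9.58 and 9.34 in the control and 9.17 and 9.05 in the knockdown arrays, a smaller change of -0.35 (adjusted p = 0.0269). The groups do not overlap in either line, and the lowest levels of the series were the H1693 knockdown arrays. In H1650 the probe set used was at 9.61 and 9.81 in the control and 10.10 and 9.94 in the knockdown arrays (0.31, adjusted p = 0.0302), but the other 3 probe sets tested were at -1.01, -1.92 and -2.29 there. In H1693 those 4 probe sets ran from -0.92 to -0.70, and in H1993 from -0.49 to -0.35.

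The partners of BRCA1 fell in H1693 and did not pass in H1993. BARD1, its obligate partner in the ligase, was at 9.08 and 8.89 in the control and 8.25 and 8.43 in the knockdown arrays of H1693 (-0.65, adjusted p = 0.000696), and its change in H1993 was -0.25 (adjusted p = 0.0756). BRIP1, the helicase also called FANCJ, was at 6.77 and 6.51 against 5.78 and 5.93 in H1693 (-0.78, adjusted p = 0.000354). Its 2 probe sets in H1693 were at -0.78 and -1.02, whereas in H1650 they were at -1.05 and 0.78. PALB2, the bridge between BRCA1 and BRCA2, went from 9.69 and 9.68 to 9.17 and 9.27 in H1693 (-0.46, adjusted p = 0.00101). In H1650 it was at 10.96 in both control arrays and at 11.01 and 10.99 after knockdown (0.04, adjusted p = 0.678). All 4 genes of this group were therefore lower in H1693, and 1 of them in H1993.

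RAD51B, RAD51C, RAD51D, XRCC2 and XRCC3, subunits of a pair of complexes (BCDX2 and CX3) that assist strand invasion, were uneven. RAD51C, a member of both complexes, was at 12.80 and 12.75 in the control and 12.37 and 12.41 in the knockdown arrays of H1693 (-0.39, adjusted p = 0.0012). In H1993 it went from 11.48 and 11.50 to 11.18 and 11.13 (-0.33, adjusted p = 0.00265). The groups did not overlap, and its 3 probe sets tested ran from -0.43 to -0.37 in H1693 and from -0.58 to -0.32 in H1993. RAD51D fell in all 3 lines on the probe set used, with changes of -0.62, -0.52 and -0.42 in H1650, H1693 and H1993 and adjusted p of 7.44e-05, 0.000472 and 0.00155. Its next brightest probe set was at -0.11, -0.05 and 0.00, none past the threshold, and another was at 0.27, -0.27 and -0.35, past it in H1650 and H1993 (adjusted p = 0.0318 and 0.0172 over all probe sets). The fall of RAD51D therefore depends on the probe set. XRCC3, which pairs with RAD51C, fell in H1650 and H1693, with changes of -1.06 and -0.61, and was at -0.03 in H1993. XRCC2 and RAD51B passed neither in H1693 nor in H1993. For RAD51B the probe set used was at 0.09 and 0.20 there, while another of nearly the same mean brightness (6.35 against 6.45) was at -0.56 and -0.69, both past the threshold over all probe sets (adjusted p = 0.0326 and 0.0127). In H1650 the probe set used went from 5.62 and 5.60 to 6.57 and 6.66 (1.01, adjusted p = 3.77e-05), the largest rise of the list.

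Among the proteins of strand annealing and invasion, RAD51AP1, which promotes the pairing with the sister, fell in both H1693 and H1993. It was at 10.17 and 10.11 in the control and 9.34 and 9.37 in the knockdown arrays of H1693 (-0.78, SE 0.07, adjusted p = 2.3e-05), and at 9.65 and 9.72 against 9.28 and 9.34 in H1993 (-0.38, adjusted p = 0.00158). Its 4 probe sets ran from -0.78 to -0.59 in H1693 and from -0.39 to -0.31 in H1993, and in H1650 from -1.31 to 1.03. RAD54L, a motor protein that assists strand invasion, fell in H1693 from 8.24 and 8.29 to 7.50 and 7.66 (-0.68, adjusted p = 0.000345) and in H1650 from 9.26 and 9.17 to 8.37 and 8.49 (-0.79, adjusted p = 6.52e-05). In H1993 its change was -0.20 (adjusted p = 0.117). Its relative RAD54B changed by -0.32 in H1693 and -0.29 in H1993 (adjusted p = 0.0184 and 0.0296). RAD52, which anneals single strands, was at 0.00 in H1693 and -0.30 in H1993 (adjusted p = 0.0549). All 12 of its probe sets were negative in H1993, and 6 of them passed over all probe sets. In H1693 none passed, and in H1650 4 passed, all of them higher.

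EXO1, a nuclease of long-range resection, fell in H1693 from 7.60 and 7.57 to 6.82 and 7.11 (-0.62, adjusted p = 0.00104). In H1993 it was at 9.19 and 9.27 against 9.12 and 9.01 (-0.17, adjusted p = 0.245), and in H1650 at 10.18 and 10.32 against 10.35 and 10.29.

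The complex that dissolves double Holliday junctions was lower in H1693 on the probe sets used, with all 4 genes past the threshold. Its helicase BLM was at 9.01 and 8.95 in the control and 7.83 and 7.89 in the knockdown arrays of H1693. The change of -1.12 (SE 0.09, adjusted p = 1.67e-05) left 46.0% of the control signal, the lowest share in the list in that line. In H1993 BLM went from 8.18 and 8.30 to 7.70 and 7.73 (-0.53, adjusted p = 0.00126), so the knockdown arrays of both lines lay between 7.70 and 7.89. In H1650 it was at 9.19 and 9.30 against 9.44 and 9.68, above both controls (0.31, adjusted p = 0.0138). RMI2, a scaffold subunit, fell in H1693 from 11.11 in both control arrays to 10.57 and 10.64, and in H1993 from 10.43 in both to 10.14 and 10.04 (-0.50 and -0.34, adjusted p = 0.00046 and 0.00401). The scaffold RMI1 and the topoisomerase TOP3A fell in H1693, with changes of -0.51 and -0.37, and were both at -0.14 in H1993. The other probe set of TOP3A was at -0.07 in H1693 (adjusted p = 0.633 over all probe sets), and its call was lost in 4 of the 22 alternatives that ask for no minimum fold. The 4 probe sets of RMI1 ran from -0.52 to -0.42 in H1693, but from -2.46 to 0.57 in H1650.

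The nucleases that cut joined molecules split by partner. EME1, the regulatory subunit of the MUS81 nuclease, fell by a similar amount in every line. It was at 10.93 in both control and 9.92 and 9.77 in the knockdown arrays of H1693 (-1.09, SE 0.10, adjusted p = 5.03e-05), and at 10.32 and 10.31 against 9.25 and 9.31 in H1993 (-1.04, adjusted p = 5.95e-05). In H1650 it went from 9.79 and 9.76 to 9.07 and 8.72 (-0.89, adjusted p = 7.56e-05), and the F test of a difference among the lines gave an adjusted p of 0.466. EME1 has 1 probe set. MUS81, the catalytic subunit, was at 10.47 and 10.38 against 10.58 and 10.64 in H1693 and at 9.95 and 10.06 against 9.87 and 9.77 in H1993, and neither change passed (0.18 and -0.18, adjusted p = 0.0972 and 0.0976). GEN1, a Holliday junction resolvase, went from 7.75 and 7.52 to 7.05 and 6.96 in H1693 (-0.63, adjusted p = 0.00151). In H1993 it went from 7.91 and 7.97 to 7.20 and 7.04 (-0.82, adjusted p = 0.000303). Its other probe sets were at -0.91 and -0.30 in H1693, the latter not past the threshold over all probe sets (adjusted p = 0.0657). They were at -0.62 and -0.44 in H1993, both past it. In H1650 the probe set used rose by 0.32, and the others, at 0.47 and -0.03, did not pass. SLX4, the scaffold for several nucleases, fell in H1693 (-0.35, adjusted p = 0.00677) and was at 0.04 in H1993.

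**Figure D2:**
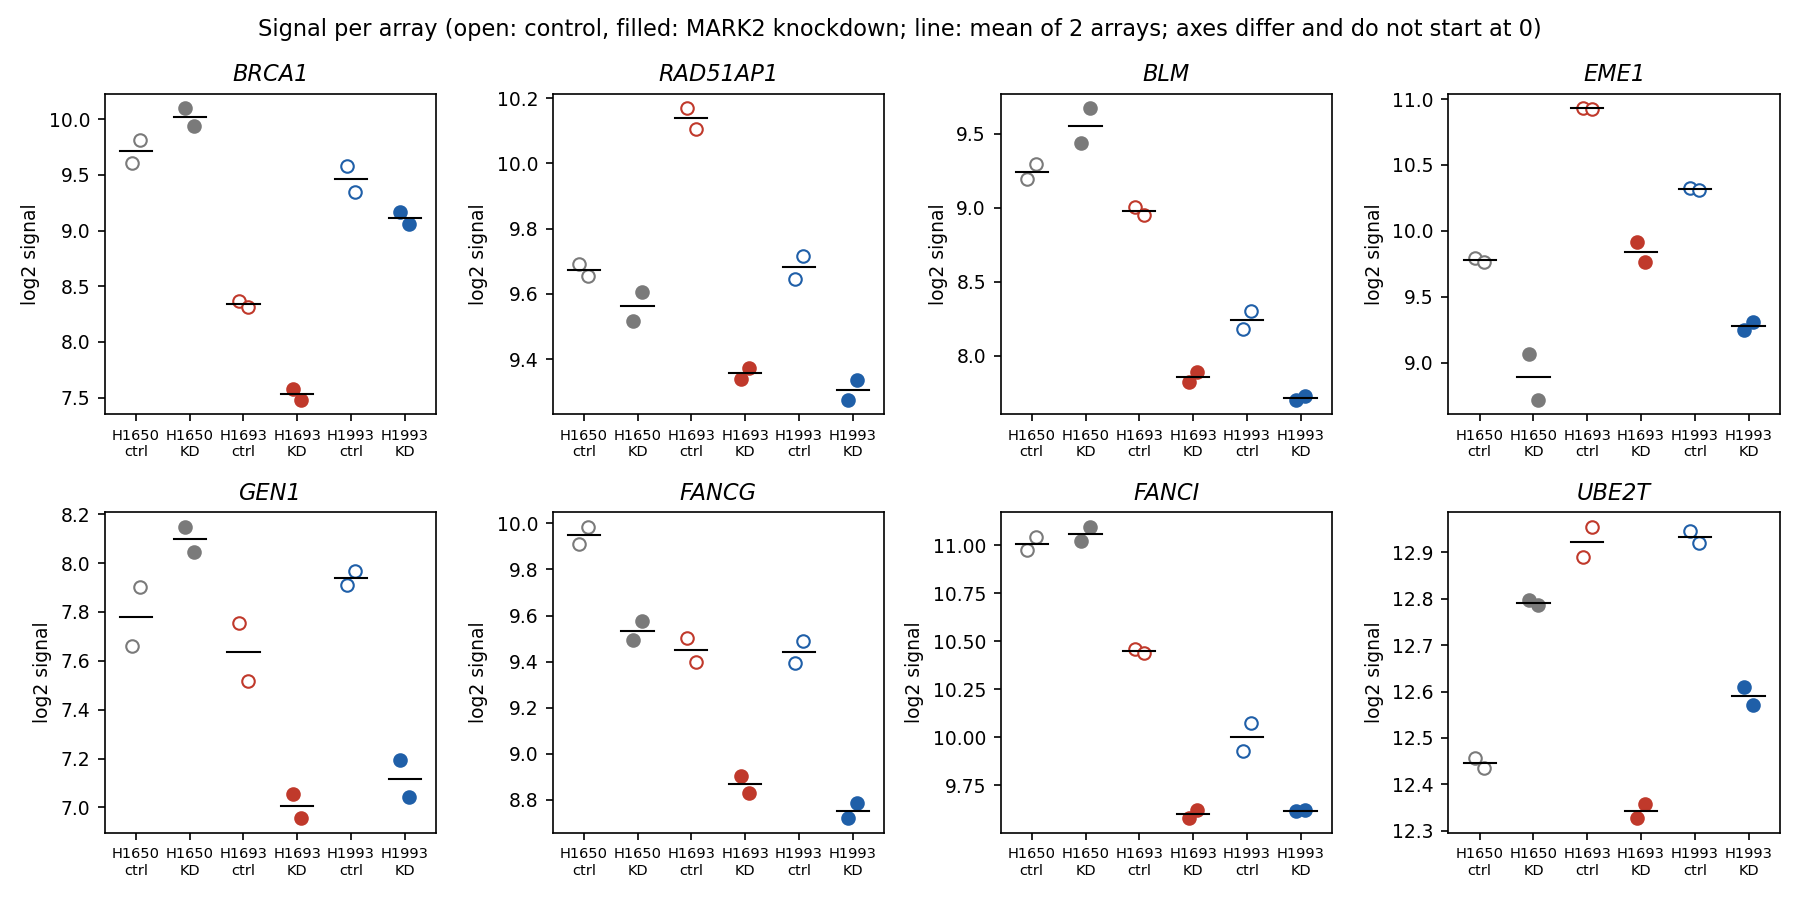
Log2 signal on each of the 12 arrays for 8 genes that fell in both H1693 and H1993 (open points control, filled points knockdown, black line the mean of 2 arrays). In every panel the filled points of H1693 and H1993 lie below the open points of the same line. In H1650 the filled points lie below for RAD51AP1, EME1 and FANCG.

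Within the Fanconi core complex, 4 of 7 genes fell in H1693 and 3 of 7 in H1993, against 15.9% and 14.5% of all genes. FANCG, a scaffold subunit, fell in all 3 lines: from 9.50 and 9.40 to 8.90 and 8.83 in H1693 (-0.58, adjusted p = 0.000228), from 9.39 and 9.49 to 8.72 and 8.78 in H1993 (-0.69, adjusted p = 7.88e-05), and from 9.91 and 9.99 to 9.49 and 9.58 in H1650 (-0.41, adjusted p = 0.000895). FANCB, which sits with the ligase FANCL in the catalytic module, went from 6.80 and 6.95 to 5.85 and 6.08 in H1693 (-0.91, SE 0.09, adjusted p = 5.39e-05). In H1993 it was at 7.14 and 7.19 against 6.93 and 6.84 (-0.28, adjusted p = 0.0373, or 0.0514 over all probe sets). In H1650 its mean went from 8.01 to 8.51 (0.50, adjusted p = 0.000941). FANCM, the translocase that anchors the complex on DNA, and FANCE, which bridges to FANCD2, fell in H1693, with changes of -0.69 and -0.51 (adjusted p = 0.000956 and 0.000829), and did not pass in H1993 (-0.17 and -0.14). FANCL, the ubiquitin ligase, rose in H1993 from 10.43 and 10.50 to 10.91 and 10.76 (0.37, adjusted p = 0.0149), with its other probe sets at 0.06 and 0.25. FANCF was at 0.13 in H1693 and -0.08 in H1993, neither past the threshold.

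FANCC, another core subunit, fell in H1993. It was at 8.40 and 8.46 in the control and 7.63 and 7.53 in the knockdown arrays (-0.85, SE 0.07, adjusted p = 2.64e-05). In H1693 the same probe set was at 7.89 and 7.82 against 7.73 and 7.82, with overlapping groups (-0.08, adjusted p = 0.47). The other 2 probe sets of FANCC were at -0.67 and -0.30 in H1693, both past the threshold over all probe sets (adjusted p = 0.00034 and 0.0248), and at -0.35 and -0.91 in H1993. The probe sets thus disagree on whether FANCC fell in H1693.

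Downstream of the core complex, FANCI and the ubiquitin-conjugating enzyme UBE2T fell in both lines. FANCI, the partner of FANCD2, went from 10.46 and 10.44 to 9.58 and 9.62 in H1693 (-0.85, SE 0.07, adjusted p = 2.11e-05) and from 9.93 and 10.08 to 9.62 in both arrays in H1993 (-0.38, adjusted p = 0.00212). Its 3 probe sets ran from -1.27 to -0.85 in H1693 and from -0.78 to -0.38 in H1993. UBE2T went from 12.89 and 12.96 to 12.33 and 12.36 in H1693 (-0.58, adjusted p = 7.11e-05) and from 12.95 and 12.92 to 12.61 and 12.57 in H1993 (-0.34, adjusted p = 0.00151). In H1650 it was at 12.46 and 12.43 against 12.80 and 12.79 (0.35, adjusted p = 0.00077). The nuclease FAN1 did not fall in any line. On the probe set used it was at 0.23 in H1693 and 0.17 in H1993, neither past the threshold, and rose by 0.52 in H1650 (adjusted p = 0.000416). Its other probe set was at 0.34 in H1693, past the threshold over all probe sets (adjusted p = 0.0146). That probe set was at 0.09 in H1993 and 0.84 in H1650.

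The size of the fall differed between H1693 and H1993 for part of the list. The test of the difference itself passed for 15 of 32 genes, against 22.1% of all genes. In 13 of these the change in H1993 lay above that in H1693 and in 2 below it, against 12.6% and 9.48% of all genes. For BLM the difference (H1993 minus H1693) was 0.59 (SE 0.12, adjusted p = 0.00825), for FANCB 0.64 (adjusted p = 0.00575) and for FANCI 0.47 (adjusted p = 0.00839). In these 3 genes the fall was larger in H1693. FANCC lay the other way on the probe set used, with -0.77 (SE 0.10, adjusted p = 0.00085), and MUS81 with -0.37 (adjusted p = 0.037). For FANCC this direction depends on the probe set, since another was at -0.67 in H1693 and -0.35 in H1993. BLM, FANCB, FANCI and FANCC passed under the 21 alternatives that ask for no minimum fold, and PALB2 and EXO1 under 5 and 6 of them. These alternatives are not all separate checks. The fit without the H1650 arrays was counted again as the fit to the arrays of H1693 and H1993 only. The terms for replicate and for array number also split the arrays of these lines alike. A difference of at least 1.5-fold was not reached by FANCI. The count of 15 was less stable. It was 4 without H1693 control replicate 1, 7 without control replicate 2, 5 without knockdown replicate 1 and 9 without knockdown replicate 2 of that line, and 8 without any single array of H1993. For EME1, GEN1 and FANCG, by contrast, the differences were 0.05 (SE 0.15), -0.19 (SE 0.15) and -0.11 (SE 0.10), with adjusted p of 0.857, 0.438 and 0.532. A missed threshold does not show equal changes. Over all 3 lines, 27 genes passed the F test of a difference, against 54.9% of all genes. The 5 that did not were RAD51D, XRCC2, TOP3A, EME1 and FANCG. The F test takes in the change in H1650, where the lower 5' signal and the hairpin cannot be told apart.

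**Figure D3:**
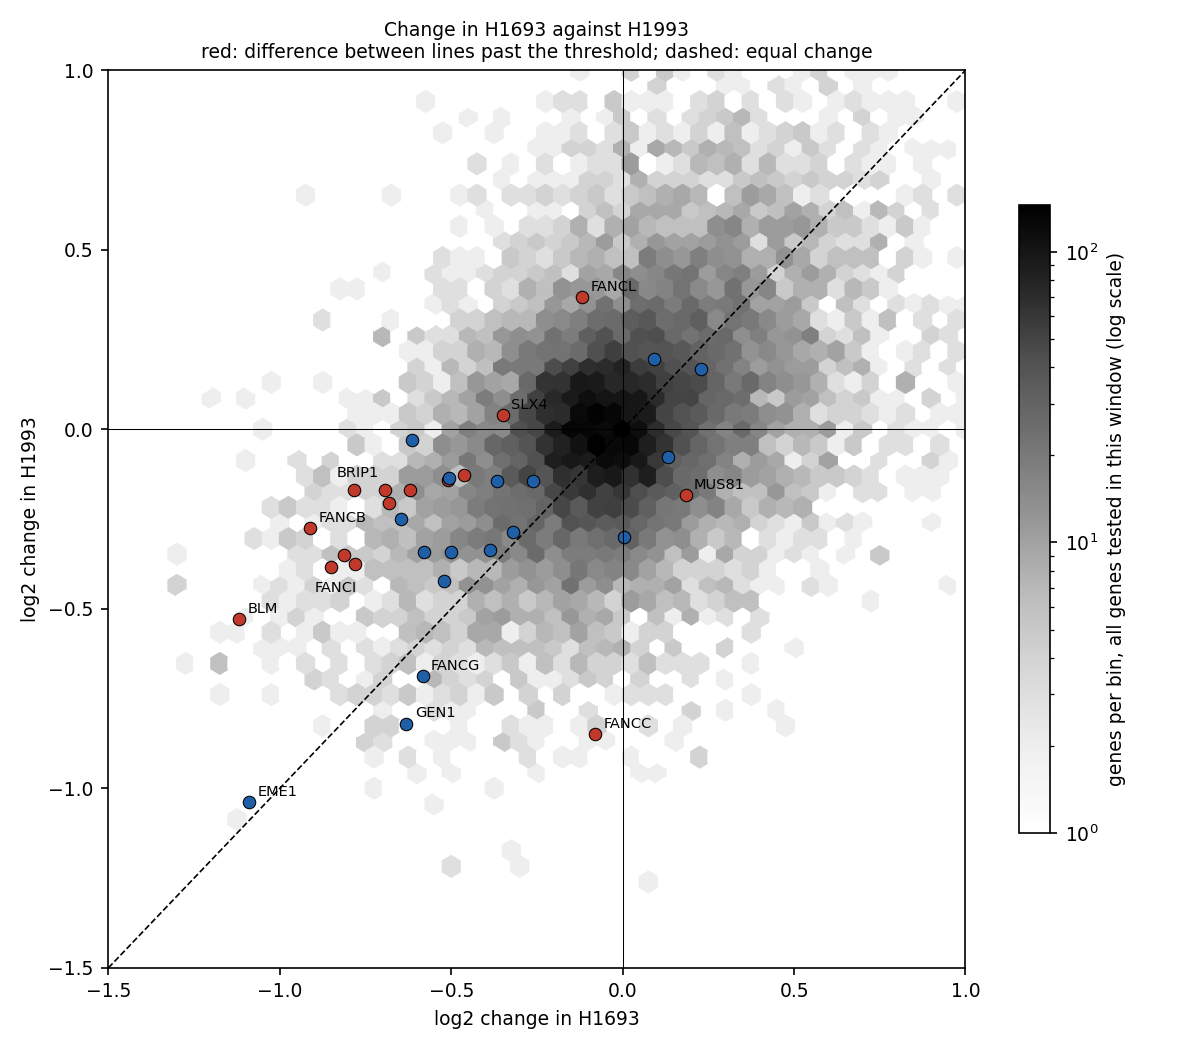
Log2 change in H1693 against the change in H1993 for the 32 genes (points; red where the difference between the lines passed the threshold) over the density of all genes tested within the plotted window (grey). Of the 32 points 25 lie above the dashed line of equal change, among them BLM and FANCB, while EME1 lies beside it and FANCC, on the probe set used, far below it.

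Agreement between probe sets of a gene separated H1650 from the other lines. Among the 18 genes with 2 or more probe sets tested, all probe sets of the gene had 1 sign in 14 genes in H1693, 15 in H1993 and 7 in H1650. The median range between a gene's highest and lowest change was 0.23 in H1693, 0.26 in H1993 and 0.65 in H1650, against 0.22, 0.23 and 0.60 over 10175 genes with 2 or more. Of the 77 probe sets of the list, 44 fell and 1 rose in H1693 and 33 fell and 1 rose in H1993. In H1650 15 fell and 29 rose. Over all 38924 probe sets tested, 13.4%, 13.7% and 21.3% were lower in H1693, H1993 and H1650, and 15.7%, 15% and 30% were higher. In H1650 BRCA1, BRIP1, RAD51D, RAD51AP1, RMI1, FANCE and FANCL each had probe sets past the threshold in opposite directions. No gene had such opposed calls in H1693 or H1993.

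**Figure D4:**
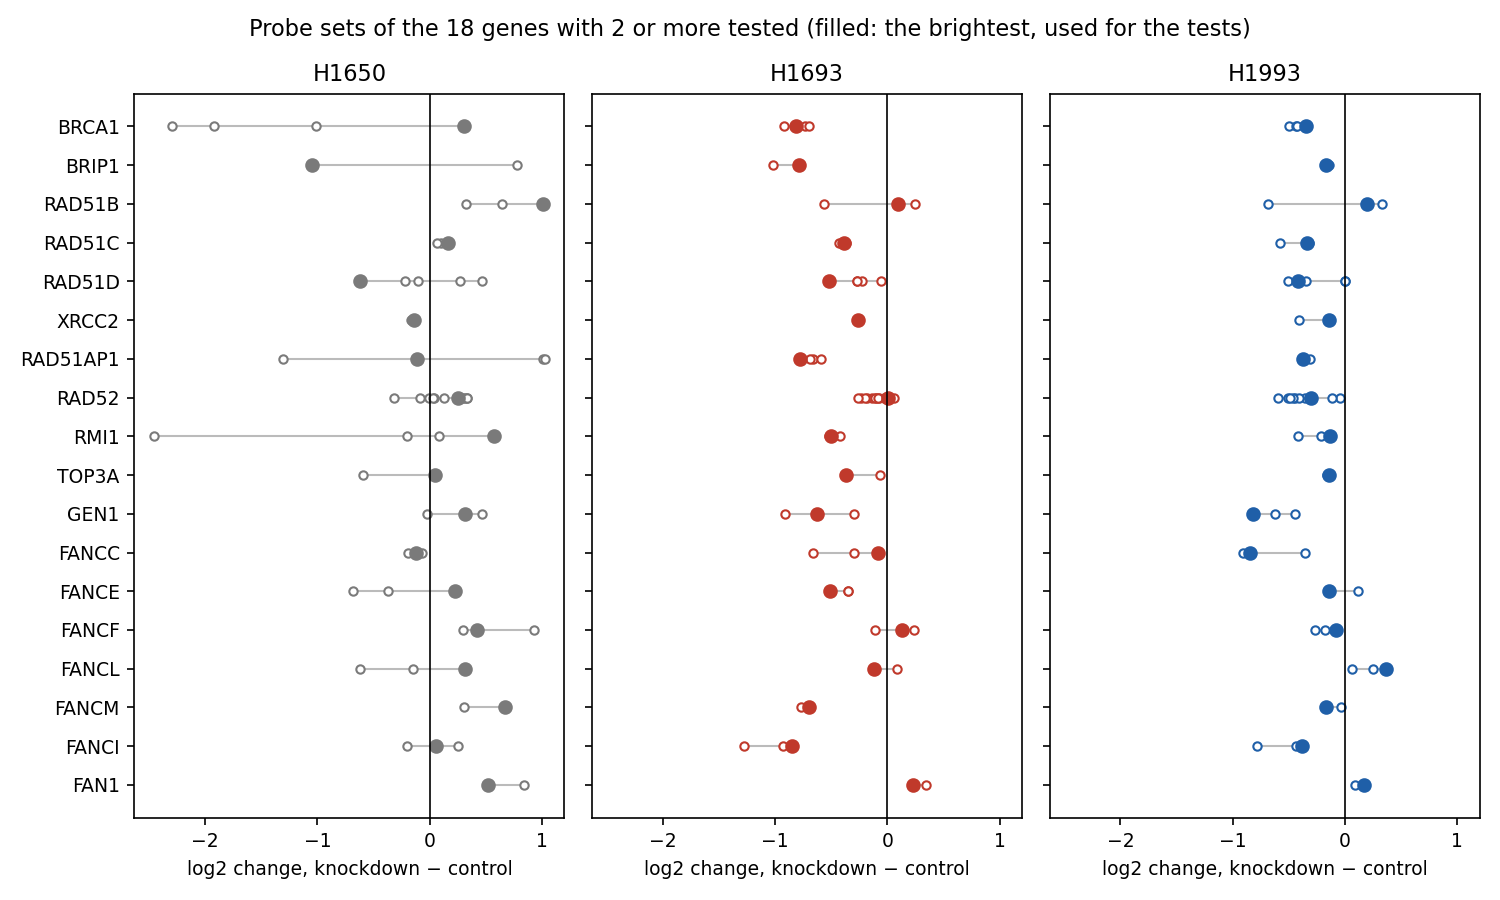
Log2 change of every probe set tested for the 18 genes with 2 or more (filled points the brightest, used for the tests, and grey lines the range within a gene). In H1650 the probe sets of BRCA1 and RMI1 run from above 0 to below -2, whereas in H1693 all of theirs lie below 0.

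The control arrays also differed between lines before any hairpin. Between H1693 and H1993, 25 of 32 genes differed in control level, against 63% of all genes. In H1993 13 were higher and 12 lower, against 30.1% and 32.9%. EXO1 varied most over the 3 lines, with control arrays at 7.60 and 7.57 in H1693, 9.19 and 9.27 in H1993 and 10.18 and 10.32 in H1650. BRCA1 was 1.12 higher in H1993 than in H1693 (adjusted p = 4.76e-06) and RMI1 1.72 higher (adjusted p = 1.75e-07). In the other direction the difference (H1993 minus H1693) was -1.33 for TOP3A, -1.28 for RAD51C and -1.04 for SLX4. UBE2T and FANCG, at differences of 0.01 and -0.01, did not pass. The level of a gene differed over the 3 control groups by a median of 0.95, against 0.81 for all genes. The H1650 control arrays, where 17 of the 32 genes (53.1%) and 43.6% of all genes had their highest control mean, also carried a GAPDH 3' minus 5' difference of 2.68.

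**Figure D5:**
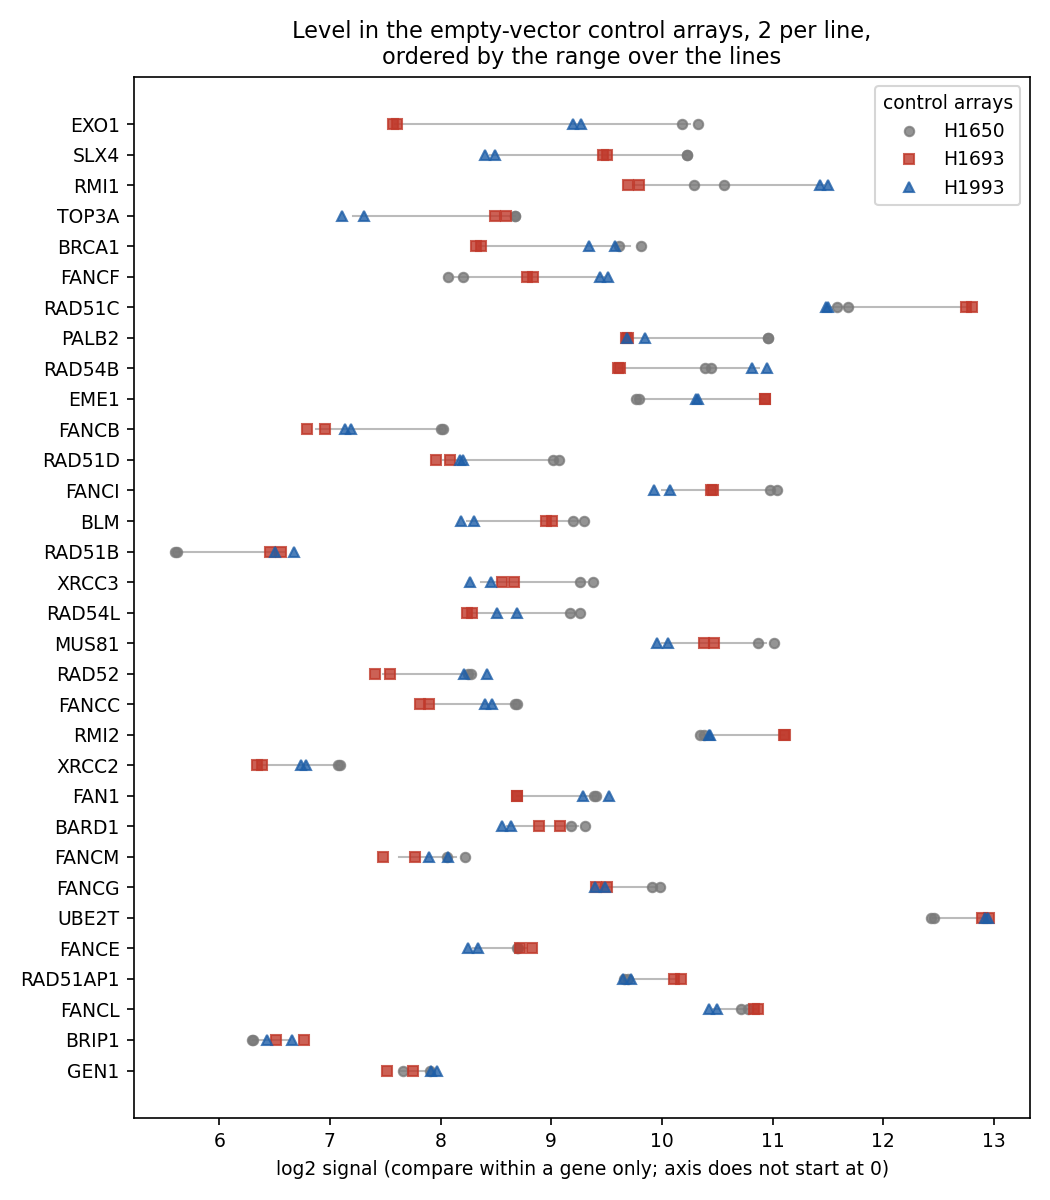
Log2 signal in the 2 control arrays of each line for the 32 genes, ordered by the range between the highest and lowest line mean. EXO1 spans 2.67 between H1693 and H1650 and GEN1 0.30, and levels can be compared between lines but not between genes.

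Other genes of recombination and crosslink repair, 50 tested of 55 listed by function, moved in both directions in every line. In H1693 23 fell and 6 rose, with a median change of -0.25. In H1993 the counts were 22 and 4, with a median of -0.22, and in H1650 14 and 21, with a median of 0.10. Of all genes tested, 15.9% fell and 17.1% rose in H1693, 14.5% and 18.9% in H1993, and 16.7% and 36.7% in H1650. Among those with the largest change in H1693, the resection nuclease DNA2 fell by 1.04 (SE 0.10, adjusted p = 5.73e-05) and was at -0.21 in H1993 (adjusted p = 0.151). The ubiquitin ligase RFWD3, which acts on RPA at crosslinks, fell in every line, with changes of -0.96 in H1693, -0.90 in H1993 and -1.42 in H1650 (adjusted p = 2.35e-05, 3.14e-05 and 9.47e-07). RPA1, the large subunit of the single-strand binding protein, changed by -0.89, -0.68 and -0.39 in the same order (adjusted p = 1.02e-05, 3.77e-05 and 0.000579). MRE11, the nuclease that starts resection, changed by -0.86 in H1693, -0.27 in H1993 and 0.61 in H1650 (adjusted p = 1.82e-05, 0.0123 and 5.72e-05).

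Replication and mitosis genes moved in the same arrays. A list of 37 tested genes for DNA replication and the G1 to S transition fell throughout in H1693 (37 of 37, median -0.85). In H1993 18 of them fell (median -0.24), and H1650 had 14 that fell and 8 that rose. A list of 36 tested genes for mitosis and G2 fell throughout in H1693 (36 of 36, median -0.97) and in H1993 (36 of 36, median -0.57), and H1650 had 12 that fell and 7 that rose. The recombination and Fanconi medians of -0.51 and -0.23 stand beside these, and the part of cell cycle distribution in them was not tested. Over all genes, 15.9% fell in H1693 and 14.5% in H1993, while in H1650 16.7% fell and 36.7% rose. MKI67, a marker of cycling cells, changed by -1.26 in H1693 and -0.55 in H1993 (adjusted p = 9.47e-06 and 0.00103). The helicase subunit MCM4 fell by 1.30 in H1693 and was at -0.33 in H1993 (adjusted p = 0.0558). FOXM1, which drives mitotic genes, changed by -1.37 in H1693, -0.92 in H1993 and -1.29 in H1650 (adjusted p = 1.17e-06, 4.82e-06 and 3.51e-07).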

How the data were processed

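The authors deposited a table of log2 signals, 1 per probe set and array. The submitters' processing notes name RMA and the Expression Console of Affymetrix, with no version. RMA removes background, gives the probe signals of every array the same distribution and combines each set's probes, which understates changes of dim genes. The medians of the deposited probe set signals still ran from 7.13 to 7.32 over the arrays. The table holds 49395 probe sets on 12 arrays, and their small number limits the precision. Names came from the platform annotation, updated by gene ID through the RefSeq table of GRCh38.p14: 44988 have 1 gene symbol, of which 44961 matched a gene ID, and 1832 with several symbols were left out. For each gene the brightest probe set over the 12 arrays was used. Genes with at least 2 arrays at a log2 signal of 5 or more were tested.

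limma 3.58.1 under R 4.3.3 fitted 1 mean per group over the 12 arrays (lmFit and eBayes, 6 residual and 3.52 prior degrees of freedom). Tested were the change after knockdown within each line, the difference of these changes between H1993 and H1693, the F test over the 3 lines, and the H1993 minus H1693 control level. All p-values are two-sided, adjusted by Benjamini and Hochberg's method over every gene tested, with a threshold of 0.05. Probe sets were tested separately in the same way over all probe sets. Genes outside the list were named by rule: MARK2, and up to 4 per gene group with the largest change past the threshold in H1693 and no overlap of arrays. The genes and lists were chosen with earlier results of these data known. Replicate numbers were not used to pair the arrays in the main fit. The correlation of same-numbered deviations was negative in H1650 and H1693 (-0.11 and -0.18) and positive in H1993 (0.29). With replicate number as a block, the count of genes that differ between H1693 and H1993 was 7 in place of 15. Arrays of a group shared at most 0.0992% of their values.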

Additional observations from a re-analysis of the deposited data

Results flagged for a closer look

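The 3' minus 5' signal of the control probe sets, which enter no comparison, was higher in the H1650 knockdown arrays than in their controls, at 6.82 for GAPDH and 7.06 for ACTB (log2), against 2.68 and 2.90.

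The change after knockdown differed between H1693 and H1993 by the test of the difference in 15 genes. The difference (change in H1993 minus change in H1693, log2) was 0.64 for FANCB, 0.62 for BRIP1, 0.59 for BLM, 0.53 for FANCM, 0.49 for FANCL, 0.48 for RAD54L, 0.47 for FANCI and 0.46 for BRCA1. It was 0.45 for EXO1, 0.41 for RAD51AP1, 0.39 for SLX4, 0.37 for FANCE and 0.33 for PALB2, and it was negative for FANCC, at -0.77 on the probe set used, and MUS81, at -0.37. Over all 3 lines, 27 of the 32 genes differed by the F test, against 54.9% of all genes. That test takes in H1650, where the lower 5' signal and the hairpin cannot be told apart. Groups of 2 arrays were not examined for single outlying arrays.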

How the results depend on the processing

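The counts of genes past the threshold, 23 in H1650, 24 in H1693 and 15 in H1993, stayed within 1.5 times under every alternative run except that requiring a change of at least 1.5-fold, which gave 7, 13 and 4. That setting also took the differences between H1693 and H1993 from 15 to 4 and the control levels that differ from 25 to 13. Leaving out 1 array at a time gave 17 to 23 genes in H1650, 21 to 25 in H1693, 12 to 16 in H1993, 4 to 14 for the difference between H1693 and H1993, 25 to 27 for the F test and 21 to 25 for control levels; such fits have fewer arrays and assume that the lone array of a group varies like the others. With the replicate block the difference count was 7. With array numbers 1 to 6 against 7 to 12 as a term it was 9. Both terms split the arrays of H1693 and H1993 alike, so these counts differ only through the spread estimated with H1650. The replicate block left 22, 24 and 15 genes in H1650, H1693 and H1993, 26 in the F test and 25 for control levels. Crossed pairing in H1650 and H1693, added after seeing the data, gave 24 and 25. Without the 4 H1650 arrays, also added then, H1693 had 24 and H1993 15. With the mean of all probe sets 4 changes in H1650 reversed: BRCA1 to -0.95, RMI1 to -0.50, FANCE to -0.28 and FANCL to -0.15, where the dimmer probe sets lie lower. Of the single genes called, 20 of 24 in H1693, 11 of 15 in H1993 and 13 of 23 in H1650 kept their call and direction under every alternative run other than that minimum fold. Those that did not were RAD54B, SLX4, TOP3A and XRCC3 in H1693, and BRCA1, RAD54B, FANCB and FANCL in H1993. The F test over the 3 lines could not be fitted within 1 line. Signal over background limits BRIP1 and RAD51B most, with arrays near the floor of 5.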

Other observations

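Among all 12980 tested genes with a promoter entry, those with the E2F core in the window had a median change of -0.05 in H1693 and -0.02 in H1993, against -0.01 and 0.02 for those without it. Among the 29 genes of the list with an entry, the medians in H1693 were -0.61 with the core and -0.43 without it, and in H1993 -0.25 and -0.15. In H1650 they were 0.04 and 0.51. The form of the motif was chosen after seeing the data and these values carry no test.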
